A study of Mus musculus with 6 samples.

Results

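The receptors described here are those encoded by Cckbr, Cckar, Qrfpr, Gpr151, Galr1, Galr2, Npy1r, Npy2r, Ntsr1 and Ntsr2, read in dorsal root ganglia of mice given the chemotherapy drug vincristine or its vehicle. They were taken by symbol, as 10 of the 38926 gene symbols counted. Cckbr, Qrfpr and Gpr151 were chosen because their counts were higher after the drug in these same libraries, so their values are a description, and neither their fold changes nor any count of calls that includes them is support for a difference. The other 7 were chosen because they bind peptides related to the chosen receptors or peptides whose own genes were higher, and the rule does not use their own difference. The ganglia came from lumbar levels 3, 4 and 5 on the side of the treated paw of female wild type C57BL/6 mice aged 8 to 10 weeks. Vehicle and vincristine groups held 3 samples each, and every sample pooled the ganglia of 4 animals. Vincristine had been injected into the paw to a cumulative 40 µg by the labels, while the names of the deposited files give 10 µg without saying whether that is per dose, and no source used here states the time between the last dose and collection. Libraries held from 12374331 to 26346304 reads counted in genes.

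Neuropeptides are small secreted proteins that sensory neurons and their neighbours release to act on G protein-coupled receptors, which span the membrane and pass the signal to heterotrimeric G proteins inside the cell. Cholecystokinin acts on Cckar and Cckbr, and gastrin mainly on Cckbr, which couples to Gq and calcium release. Galanin acts on Galr1 and Galr2, neuropeptide Y on Npy1r and Npy2r, and neurotensin on Ntsr1 and Ntsr2. Qrfpr is the receptor of the RFamide peptide QRFP, while Gpr151 is an orphan receptor related in sequence to the galanin receptors and known from habenular and sensory neurons. Several of these peptides are known to be induced in sensory neurons whose axons have been cut.

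Promoter windows were read for 7 of the 10 receptors, each from 250 bases before to 50 bases after the RefSeq gene start (GRCm38.p6). No window was read for Cckar, Gpr151 and Galr1, so their promoters are not described. GENCODE M21, used for gene positions and exon lengths below, has the same start for Cckbr but starts Qrfpr 38 bases and Npy1r 230 bases farther upstream. The windows of Cckbr and Qrfpr are shown because both transcripts were near the limit of detection in vehicle and higher after the drug, and that of Npy1r because it was the member window with a match to a searched motif. In the first pair, capitals mark the 50 bases after the RefSeq start. In the Npy1r window, capitals mark a match to the AP-1 motif. The Cckbr window lies on the plus strand at chr7:105425481-105425780, the Qrfpr window on the minus strand at chr3:36222226-36222525, and the Npy1r window on the plus strand at chr8:66697172-66697471.
Cckbr: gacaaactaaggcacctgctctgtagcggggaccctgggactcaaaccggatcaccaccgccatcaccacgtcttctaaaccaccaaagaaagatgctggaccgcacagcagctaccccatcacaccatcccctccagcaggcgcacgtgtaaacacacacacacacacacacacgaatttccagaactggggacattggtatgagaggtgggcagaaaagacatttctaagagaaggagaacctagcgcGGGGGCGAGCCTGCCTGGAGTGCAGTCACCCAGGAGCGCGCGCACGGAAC
Qrfpr: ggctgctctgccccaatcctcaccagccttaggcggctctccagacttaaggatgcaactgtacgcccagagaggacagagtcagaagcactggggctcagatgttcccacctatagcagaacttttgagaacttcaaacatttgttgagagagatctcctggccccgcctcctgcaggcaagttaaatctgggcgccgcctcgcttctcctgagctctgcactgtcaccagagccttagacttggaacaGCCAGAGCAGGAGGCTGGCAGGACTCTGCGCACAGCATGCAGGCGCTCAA
Npy1r: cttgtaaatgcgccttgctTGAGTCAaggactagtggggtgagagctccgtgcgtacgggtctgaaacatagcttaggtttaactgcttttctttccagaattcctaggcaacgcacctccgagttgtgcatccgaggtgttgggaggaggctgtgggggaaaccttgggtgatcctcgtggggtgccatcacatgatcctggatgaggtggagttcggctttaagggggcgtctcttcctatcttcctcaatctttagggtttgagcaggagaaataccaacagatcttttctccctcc
Both strands were searched for TGANTCA, the AP-1 motif that dimers with JUN family proteins bind, and for TGACGTCA, the cyclic AMP response element. Neither motif contains the other. The Npy1r match, TGAGTCA, lies at -231 to -225 from the RefSeq start and spans the GENCODE start. Of the 7 member windows 1 held either motif and 0 held the response element. Of all 32851 windows of this length 7.81% held the AP-1 motif and 1.79% the response element. These matches describe letters in a short window and are no evidence of binding.

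Vincristine replicate 1 stood apart from the other 5 libraries. It had the fewest reads in genes, and 24.8% of its tallied alignments were assigned to no annotated feature, against 14.8% to 17.03% elsewhere. The first principal component, with 56.4% of the variance, set it at one end. Without it the log2 fold change was 6.43 for Cckbr, 5.08 for Qrfpr and 4.34 for Gpr151, and 0.47 for Cckar, -0.35 for Galr1, 0.24 for Npy1r, 0.72 for Npy2r and -0.25 for Ntsr2. The values with it follow receptor by receptor.

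Cckbr, the type B cholecystokinin receptor, was close to the floor in vehicle and among the better expressed receptors after vincristine. The gene lies on the plus strand of chromosome 7 from 105425731 to 105470898 (GRCm38, GENCODE M21, as for the other positions). Its raw reads were 4, 6 and 2 in vehicle replicates 1, 2 and 3, and 118, 280 and 585 in vincristine replicates 1, 2 and 3. As reads scaled to library size (counts-per-million, CPM) these were 0.224, 0.313 and 0.09996 in vehicle against 9.14, 14.6 and 22.5 CPM in vincristine. The groups did not overlap, and the lowest vincristine library was far above the highest vehicle library. The ratio of summed reads, here and below after dividing each sum by the summed scaled library sizes of its group, was 80.6. Its exact 95% interval of 45.9 to 156 covers counting error only. The fitted log2 fold change was 6.16 ± 0.50 (SE).

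Cckar, the type A receptor of the same peptide, was already present in vehicle and had overlapping groups. The gene lies on the minus strand of chromosome 5 from 53697776 to 53707705. It was at 16.7, 26.2 and 18.1 CPM in the vehicle replicates and at 8.44, 26.5 and 29.98 CPM in the vincristine replicates. Vincristine replicate 1 was the lowest of the 6 libraries, while the other two vincristine libraries lay at or above the vehicle range. The log2 fold change was 0.10 ± 0.43 (SE), with an adjusted p of 0.950 by edgeR, and its sign turned when vincristine replicate 3 was left out (-0.22), when vincristine replicate 2 was left out (-0.068) and when vehicle replicate 1 was left out (-0.023). With both transcripts expressed per kilobase of annotated exon, Cckbr made up 1.31 ± 0.529% of the pair in vehicle and 49.6 ± 8.34% in vincristine (SD, n = 3 each). By library its share was 1.70%, 1.51% and 0.704% in vehicle and 58.2%, 41.5% and 49.2% in vincristine.

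**Figure D1:**
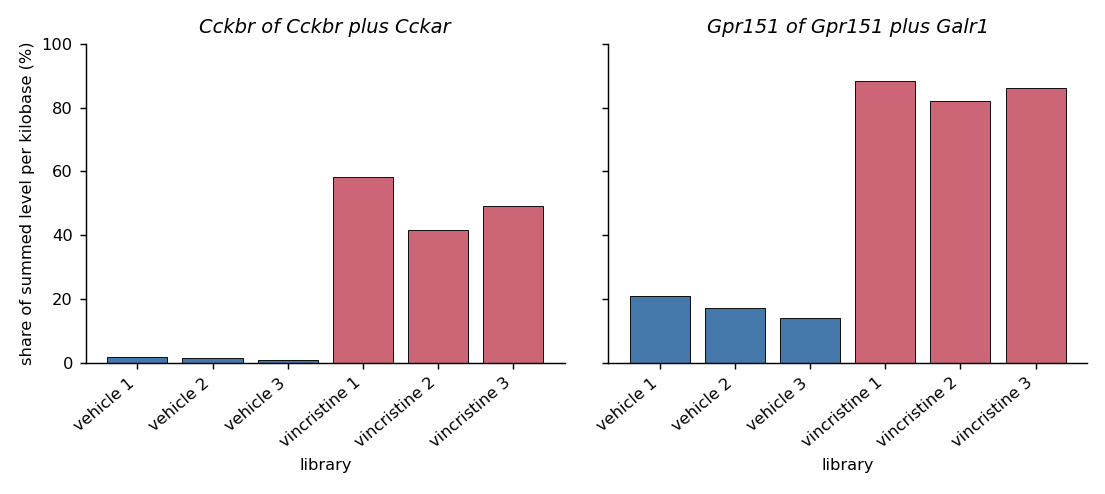
Bars give, for each of the 6 libraries, the share of Cckbr in the summed level of Cckbr and Cckar (left) and of Gpr151 in that of Gpr151 and Galr1 (right), from CPM per kilobase of exon. Cckbr takes at most 1.70% of its pair in vehicle and 41.5% to 58.2% in vincristine, and Gpr151 goes from at most 21.02% to at least 82.0%. Cckbr and Gpr151 were chosen as higher after the drug, and Gpr151, an orphan receptor, shares no known peptide with Galr1.

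Qrfpr, the receptor of QRFP, was the least abundant of the 10 in vehicle. The gene lies on the minus strand of chromosome 3 from 36179424 to 36222313. It had 1, 2 and 1 reads in the vehicle libraries and 22, 32 and 88 in the vincristine libraries, or 0.04998 to 0.104 CPM against 1.70, 1.67 and 3.39 CPM. The groups did not overlap, although even the highest value stayed below 4 CPM. The ratio of summed reads was 34.9, and its exact 95% counting interval ran from 13.3 to 130. The fitted log2 fold change was 4.91 ± 0.54 (SE). With 4 vehicle reads in all, the size of this fold is less certain than that of Cckbr.

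Gpr151, the orphan receptor, was low but measurable in every vehicle library. It had 18, 21 and 16 reads in vehicle and 121, 302 and 608 in vincristine, which is 1.01, 1.09 and 0.800 CPM against 9.37, 15.8 and 23.4 CPM. All vincristine values exceeded all vehicle values. The mean ratio was 16.7 and the log2 fold change 4.07 ± 0.39 (SE). Among the 3 chosen receptors, Cckbr and Qrfpr passed the filter on low counts through the vincristine libraries alone.

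**Figure D2:**
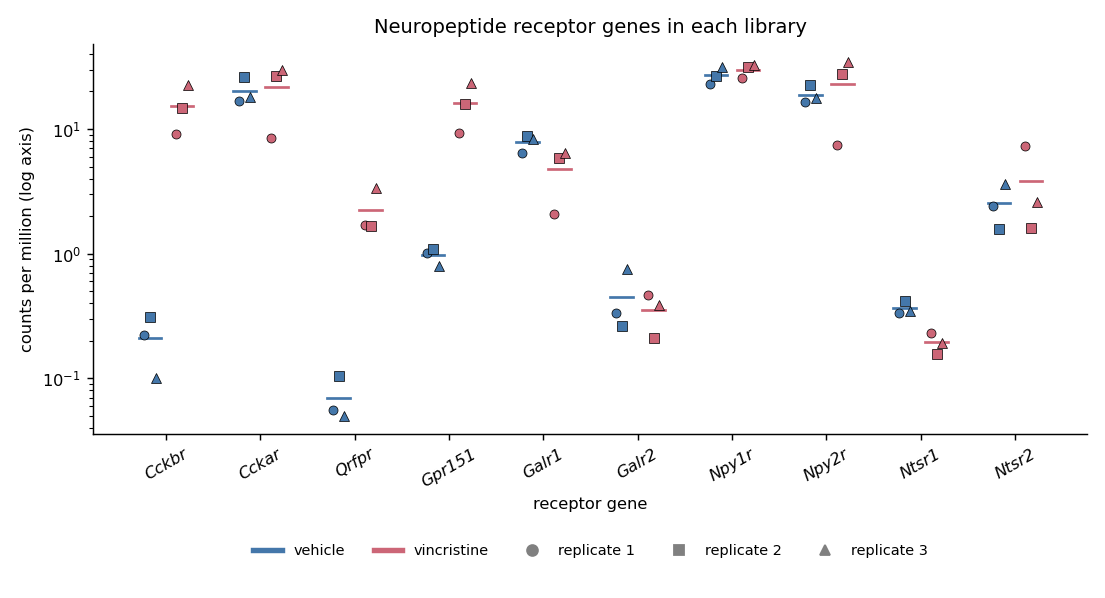
Points show the CPM of each receptor gene in each library on a log axis, by group (colour) and replicate (symbol), and short lines show group means. Cckbr, Qrfpr and Gpr151 separate by group without overlap, while Cckar, Galr1, Npy1r, Npy2r and Ntsr2 overlap and Galr2 and Ntsr1 stay below 1 CPM.

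Galr1 and Galr2 bind galanin. Galr1, a Gi-coupled receptor, was at 6.39, 8.86 and 8.25 CPM in vehicle and at 2.09, 5.85 and 6.40 CPM in vincristine. Its mean was lower after the drug, but the highest vincristine library reached the lowest vehicle library (log2 -0.68 ± 0.37 SE; edgeR adjusted p = 0.548). Galr2, which couples mainly to Gq, had 6, 5 and 15 reads in vehicle and 6, 4 and 10 in vincristine, too few to be tested. Its ratio of summed reads was 0.756, and its exact 95% counting interval ran from 0.400 to 1.41. On the scale per kilobase of exon, Gpr151 made up 17.4 ± 3.49% of the summed level of Gpr151 and Galr1 in vehicle and 85.4 ± 3.22% in vincristine (SD, n = 3 each). Gpr151 is an orphan receptor chosen for its higher counts, so this is no share among galanin receptors and its rise is a description.

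The neuropeptide Y receptors were well expressed in both groups. Npy1r, a Gi-coupled receptor found on peptidergic sensory neurons, was at 22.97, 26.8 and 31.4 CPM in vehicle and at 25.5, 31.4 and 32.6 CPM in vincristine. The ranges lay almost on top of each other (log2 0.14 ± 0.15 SE; edgeR adjusted p = 0.757), and this was the smallest spread between vincristine libraries among the 10, a factor of 1.28. Npy2r, the other main Gi-coupled receptor of this peptide, was at 16.4, 22.4 and 17.9 CPM in vehicle and at 7.43, 27.4 and 34.7 CPM in vincristine. Vincristine replicate 1 was again below every vehicle library and the other two were above them (log2 0.31 ± 0.48 SE; edgeR adjusted p = 0.839). Npy1r lies on the plus strand of chromosome 8 from 66697192 to 66706792 and Npy2r on the minus strand of chromosome 3 from 82538383 to 82548084. The Npy2r difference was -0.11 without vincristine replicate 3.

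The neurotensin receptors were low. Ntsr1, the high-affinity receptor, had 6, 8 and 7 reads in vehicle and 3, 3 and 5 in vincristine. These values did not overlap once scaled (0.336 to 0.417 against 0.157 to 0.232 CPM), but the counts were too few to be tested. The ratio of summed reads was 0.515, and its exact 95% counting interval ran from 0.224 to 1.12. Ntsr2, the lower-affinity receptor, was at 2.41, 1.56 and 3.65 CPM in vehicle and at 7.28, 1.62 and 2.62 CPM in vincristine. Only vincristine replicate 1 stood above the vehicle range (log2 0.55 ± 0.58 SE; edgeR adjusted p = 0.752), and without that library the log2 fold change was -0.25.

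In all, 8 of the 10 receptors had enough reads to be tested, and 3 of these 8 passed an edgeR adjusted p under 0.05, all higher after vincristine. They were the same 3 that had been chosen for this difference, so the count follows from the choice and nothing is read from it. Over all 16706 genes tested, 0.359% passed in either direction and 0.293% were higher and 0.0658% lower. With no adjustment, p was under 0.05 for 8.1% that were higher and 3.27% that were lower. DESeq2 called 3.41% in either direction. The 5 other tested receptors did not pass by edgeR, by DESeq2 or by limma with sample weights. Read in the same way, the count was 0 when any single vehicle library or vincristine replicate 2 was left out. Over these and the other alternatives the log2 fold change stayed between 5.77 and 6.57 for Cckbr, 4.44 and 5.29 for Qrfpr, and 3.69 and 4.39 for Gpr151.

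The order of the receptors changed between the groups when levels were set per kilobase of exon (CPM per kilobase, with exon lengths from GENCODE M21). In vehicle, Npy1r had the highest mean at 7.84 ± 1.22, before Npy2r (5.58 ± 0.921) and Cckar (5.52 ± 1.38). The Cckar libraries overlapped those of Npy1r and of Npy2r, while Npy1r and Npy2r did not overlap each other. Galr1 followed at 2.62 ± 0.431, then Ntsr2 (0.814 ± 0.336) and Gpr151 (0.546 ± 0.0855), again overlapping neighbours. Galr2 (0.183 ± 0.107), Ntsr1 (0.0938 ± 0.0110), Cckbr (0.0742 ± 0.0373) and Qrfpr (0.0320 ± 0.0136) closed the order, each overlapping the next (SD, n = 3). In vincristine, Gpr151 had the highest mean (9.14 ± 3.97), but its libraries overlapped those of Npy1r (8.64 ± 1.09), and the next neighbours Npy2r (6.85 ± 4.17), Cckar (5.87 ± 3.14) and Cckbr (5.39 ± 2.36) overlapped likewise. A gap without overlap separated Cckbr from Galr1 (1.60 ± 0.785). Ntsr2 (1.23 ± 0.968) and Qrfpr (1.03 ± 0.449) came next, and Galr2 (0.144 ± 0.0533) and Ntsr1 (0.0495 ± 0.00966) were last. By mean, Cckbr ranked 9 in vehicle and 5 in vincristine and Gpr151 ranked 6 and 1, while Npy1r, Npy2r and Cckar kept their order among themselves.

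Vincristine replicate 1 differed from the other libraries in its content of neuronal transcripts. The 9 pan-neuronal markers summed to 4806 to 5996 CPM in vehicle and to 2499, 5339 and 6532 CPM in vincristine replicates 1, 2 and 3. None was at 0 in any library, so the labelled tissue showed its defining neuronal genes throughout. By edgeR 0 of 9 passed (0 with unadjusted p under 0.05, 0 by DESeq2). Against the vehicle mean, the geometric mean of these markers was 40.9%, 92.4% and 109% in the vincristine libraries. The 7 markers of peptidergic neurons summed to 1402 to 1456 CPM in vehicle and 516, 1111 and 1172 CPM in vincristine, and the 6 of non-peptidergic neurons to 852 to 1212 CPM and 244, 782 and 894 CPM. In whole ganglia, fewer neurons, less RNA per neuron and a larger share of RNA from other cells cannot be told apart.

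Relative to these markers, Cckbr and Gpr151 were more even across the vincristine libraries than in CPM, as were Cckar, Galr1 and Npy2r. Per 1000 CPM of the mean neuronal marker, Cckbr was at 66.1, 46.8 and 61.4 in vincristine replicates 1, 2 and 3, against 0.765, 0.828 and 0.291 in vehicle. The highest vincristine library exceeded the lowest by a factor of 1.41 on this scale and of 2.47 in CPM. Gpr151 was at 67.8, 50.5 and 63.9 against 3.44, 2.90 and 2.33, and its factor was 1.34 on this scale and 2.50 in CPM. Qrfpr was at 12.3, 5.35 and 9.24 against 0.191, 0.276 and 0.145, and did not become more even (2.30 against 2.03). All 3 were separated by group on both scales. From CPM to this scale the factor fell from 3.55 to 1.39 for Cckar, 3.06 to 1.24 for Galr1 and 4.67 to 1.76 for Npy2r. It rose for Npy1r, Galr2, Ntsr1 and Ntsr2. Greater evenness was thus not particular to the chosen receptors.

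Values of the other receptors were also set on the neuronal scale. Cckar went from 52.8 to 69.3 in vehicle to 61.1, 84.7 and 81.7 in vincristine, so the low CPM of vincristine replicate 1 returned into the vehicle range. Npy2r did the same, at 53.8, 87.7 and 94.5 against 52.1 to 59.2. Galr1 was at 21.8, 23.5 and 24.0 in vehicle and at 15.1, 18.7 and 17.4 in vincristine, so on this scale its groups no longer overlapped. A fit scaled by the neuronal markers, chosen after the data were seen, gave Galr1 a value of -0.43 ± 0.46 (SE) with an adjusted p of 0.590 by edgeR, beside a shift of 0.53 in the median of all genes under that scaling. Npy1r and Ntsr2 stood out in the other direction in vincristine replicate 1, at 185 and 52.7 against 71.1 to 91.4 and 4.14 to 10.6 in vehicle. The 7 spinal cord and motor neuron markers also had their highest sum in that library, at 92.8 CPM against 15.9 to 38.4 CPM elsewhere. Gfap alone gave 67.4 CPM of that sum, Olig1 10.1 CPM and Slc32a1 7.66 CPM, and Chat had 6 reads. A link between these markers and Ntsr2 was not tested.

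**Figure D3:**
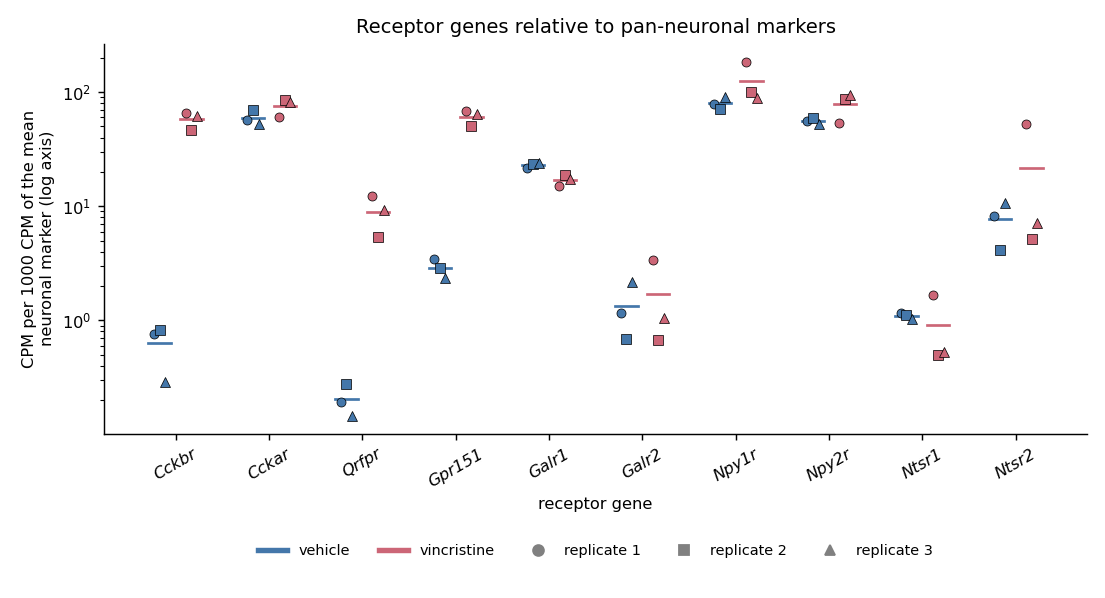
Points give each receptor gene's CPM per 1000 CPM of the geometric mean of 9 pan-neuronal markers in each library, on a log axis, and short lines show group means. Cckbr lies at 46.8 to 66.1 in vincristine against at most 0.828 in vehicle, Galr1 lies lower in all 3 vincristine libraries, and Ntsr2 is high in vincristine replicate 1 alone.

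Summed markers of neutrophils, erythroid cells and macrophages were higher in every vincristine library than in any vehicle library, and highest in vincristine replicate 1. The 7 neutrophil markers summed to 733 to 1275 CPM in vehicle and to 7129, 2309 and 2627 CPM in vincristine (0 of 7 by edgeR, 7 with unadjusted p under 0.05, 7 by DESeq2). The 6 erythroid markers summed to 821 to 1130 CPM and to 3892, 1672 and 1967 CPM (0 by edgeR, 6 unadjusted, 4 by DESeq2). The 6 macrophage markers summed to 250 to 290 CPM in vehicle and 336 to 470 CPM in vincristine (0 by edgeR, 5 unadjusted, 2 by DESeq2). The 5 B-cell markers fell by edgeR in 5 of 5 cases, from 29.6 to 58.8 CPM to 3.08 to 6.19 CPM in sum. No marker of these 4 lists was at 0 in any library, and the part of these cells in the receptor values was not tested. By edgeR 0 members passed in the lists of peptidergic, non-peptidergic and myelinated afferent neurons, satellite glia, Schwann cells, endothelium, spinal cord and muscle. Among these lists, unadjusted p was under 0.05 for 1 peptidergic marker with lower values and for 1 spinal cord and 2 muscle markers with higher values, 0 passed by DESeq2, and the motor neuron marker Mnx1 was at 0 reads in all 6 libraries.

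The genes of the peptides themselves were read in the same libraries. Of the 10 peptide genes looked up, 6 had reads. Neurotensin (Nts) was at 11.2, 9.69 and 7.90 CPM in vehicle and 136, 193 and 246 CPM in vincristine, while both of its receptors stayed below 8 CPM in every library. Neuropeptide Y (Npy) was at 0.448, 0.208 and 0.400 CPM against 6.27, 4.49 and 9.67 CPM, beside Npy1r and Npy2r that were present before. Galanin (Gal) was at 4.99, 5.31 and 4.75 CPM against 14.2, 19.7 and 36.5 CPM, beside Galr1 with a lower mean. Unlike Nts and Npy, Gal did not pass by edgeR (adjusted p = 0.0692), though it did by DESeq2 (adjusted p = 1.63e-07). The groups of these peptides did not overlap. They were known to be higher when the receptors were chosen, so these values too are a description.

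The peptides of Cckbr and Qrfpr were scarce. Cholecystokinin (Cck) had 7, 8 and 3 reads in vehicle and 19, 7 and 15 in vincristine, and the groups overlapped. The ratio of summed reads was 2.24, and its exact 95% counting interval ran from 1.26 to 4.14. The QRFP gene (Qrfp) had 3 reads in all of vehicle and 2 in all of vincristine (ratio 0.656, exact 95% counting interval 0.0548 to 5.72). Spexin (Spx), a peptide that acts on galanin receptors, had 10 and 16 reads. The genes of gastrin, galanin-like peptide, peptide YY and pancreatic polypeptide (Gast, Galp, Pyy and Ppy) had 0 reads in all 6 libraries, where 3 reads would be 0.116 to 0.232 CPM. At this depth a low level of these peptides in the ganglia was not detectable.

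Other receptors of the same peptides did not pass either. Of 5 genes found, 3 were tested and 0 passed by edgeR (1 with unadjusted p under 0.05) or by DESeq2. Sortilin (Sort1), a sorting receptor that binds neurotensin, averaged 112 ± 6.82 CPM without the drug and 140 ± 12.6 CPM with it (SD, n = 3 per group), without overlap (log2 0.32 ± 0.12; edgeR adjusted p = 0.365). Its relative Sorl1 was at 307 ± 82.3 and 279 ± 33.8 CPM (edgeR adjusted p = 0.851). Each shares exon bases with a transcript of the other strand, and whether reads were counted by strand is unknown here. Npy6r was at 0.474 and 0.574 CPM (edgeR adjusted p = 0.887), and Npy4r and Npy5r, with 33 and 47 reads in total over the 6 libraries, were too few to be tested.

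**Figure D4:**
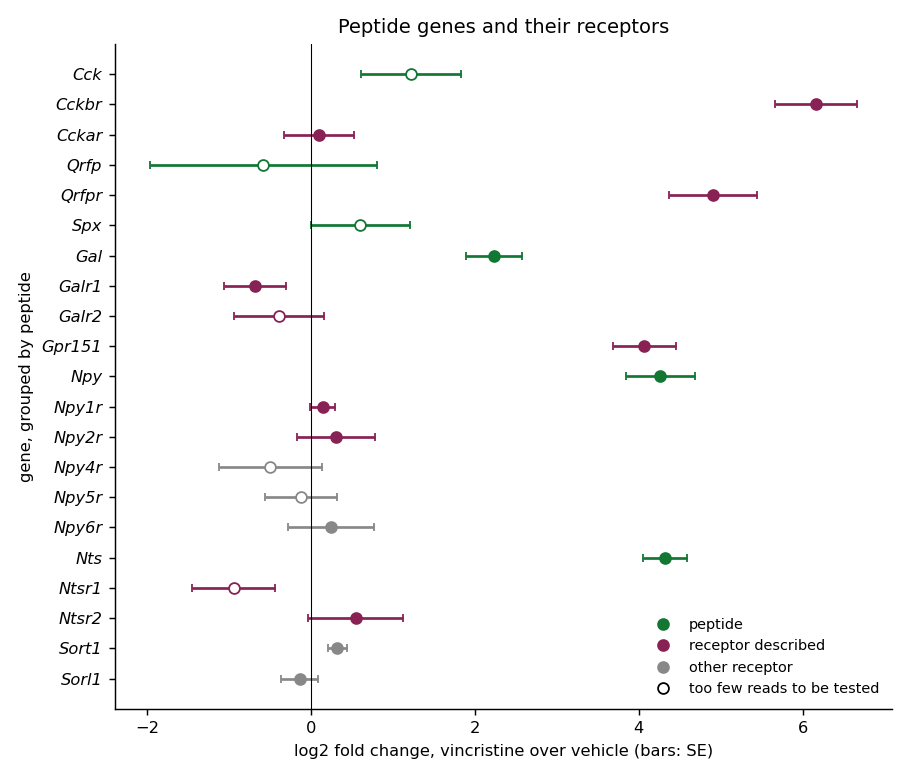
Points give the log2 fold change of vincristine over vehicle with its SE for peptide genes, the receptors described and other receptors of the same peptides, and open points mark genes with too few reads to be tested, from a fit without the filter on low counts. Nts, Npy and Gal lie at 4.32, 4.26 and 2.23 while their receptors lie within 1 of zero. Cckbr and Qrfpr lie at 6.16 and 4.91, beside Cck at 1.23 ± 0.61 and Qrfp at -0.58 ± 1.38 (SE).

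Across a wider list of 68 neuropeptide receptors, 32 had enough reads, and 0 of these passed by edgeR. Unadjusted p fell under 0.05 for 2 with higher values (against 8.1% of all genes tested) and 5 with lower values (against 3.27%). DESeq2 called 1, the delta opioid receptor gene Oprd1 (adjusted p = 0.0162 by DESeq2), where it called 0.491% of all genes lower and 2.92% higher. Groups did not overlap for 3 higher (9.38%) and 5 lower (15.6%) of the 32, against 11.5% and 9.51% of all genes tested. The median log2 fold change of the 32 was -0.10, beside -0.0033 for all genes. Oprd1, an inhibitory receptor for enkephalins, was at 7.73, 14.0 and 13.4 CPM in vehicle and at 1.55, 4.803 and 5.32 CPM in vincristine (log2 -1.55 ± 0.43 SE; edgeR adjusted p = 0.238). The oxytocin receptor gene Oxtr was at 1.85, 1.56 and 1.85 CPM against 2.79, 3.60 and 2.89 CPM (log2 0.82 ± 0.22 SE; edgeR adjusted p = 0.219).

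The angiotensin receptor genes Agtr1a (log2 -0.72 ± 0.23 SE) and Agtr1b (log2 -1.03 ± 0.34 SE) were lower without overlap between groups and did not pass (edgeR adjusted p = 0.320 and 0.325). Ednrb and Calcrl were the most abundant genes named from the list. Ednrb, the type B endothelin receptor, was at 94.0 ± 13.6 and 90.3 ± 15.7 CPM, and Calcrl, which forms the CGRP receptor with a partner protein, at 43.5 ± 4.81 and 52.4 ± 19.3 CPM (SD, n = 3 each). The mu opioid receptor gene Oprm1 was at -0.38 ± 0.35 on the log2 scale and the prokineticin receptor gene Prokr1 at -0.34 ± 0.17 (SE), with edgeR adjusted p of 0.711 and 0.529. Oprm1 shares exon bases with Ipcef1, which runs the other way.

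**Figure D5:**
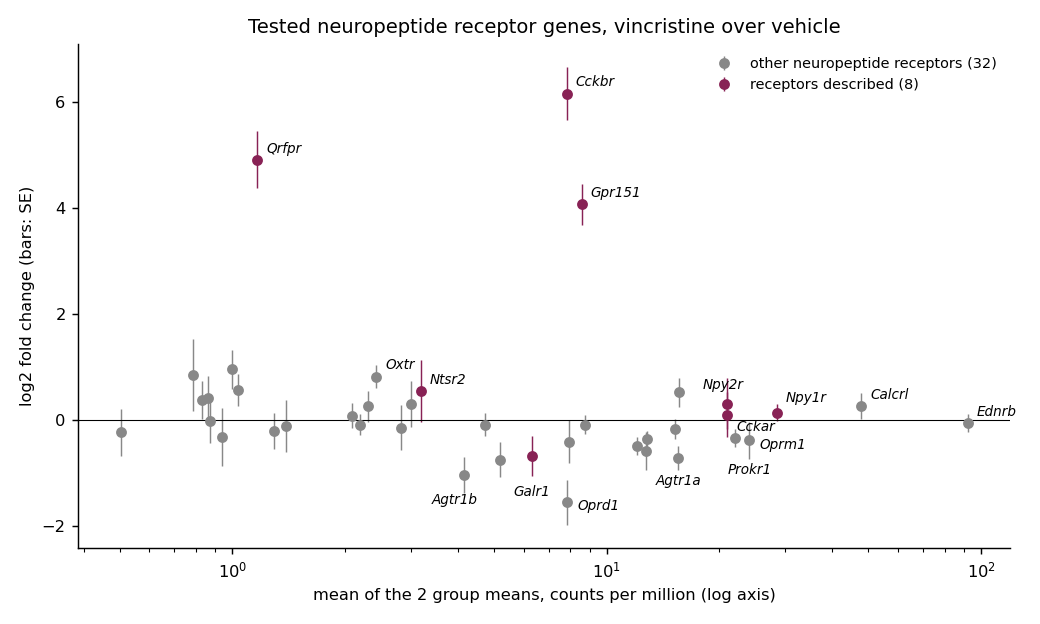
Points give the log2 fold change with its SE against mean CPM on a log axis for the 8 tested receptors described and for 32 other neuropeptide receptor genes. Cckbr, Qrfpr and Gpr151, chosen for this difference, lie at 4.07 or above, and of the others Oprd1 lies at -1.55 and Oxtr at 0.82.

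Genes that carry receptor signals onward were read as a further list. Of 31 genes for G protein alpha subunits, phospholipase C beta, arrestins, receptor kinases and RGS proteins, 30 were tested and 0 passed by edgeR. Without adjustment, p was under 0.05 for 3 with higher (8.1% of all genes) and 3 with lower values (3.27% of all genes), and DESeq2 called 1, Plcb2, where it called 2.92% of all genes higher. Groups did not overlap for 6 higher (20%) and 7 lower (23.3%) of the 30, against 11.5% and 9.51% of all genes tested. The median log2 fold change of the 30 was -0.095. Plcb2, a phospholipase C known from blood cells, was at 11.4, 7.24 and 11.1 CPM in vehicle and at 35.8, 17.1 and 19.5 CPM in vincristine (log2 1.28 ± 0.32 SE, edgeR adjusted p = 0.201). Vincristine replicate 1, where Plcb2 was highest, also had the highest sums of neutrophil, erythroid and macrophage markers. A link between these markers and Plcb2 was not tested. Arrb2 (0.57 ± 0.17), an arrestin that ends receptor signalling, and the receptor kinase gene Grk6 (0.31 ± 0.11) had positive log2 fold changes and Rgs3 (-0.43 ± 0.17) a negative one (edgeR adjusted p = 0.263, 0.352 and 0.395).

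The abundant genes of this list were Gnas (1267 ± 54.0 and 1146 ± 153 CPM), which encodes the stimulatory alpha subunit, Rgs4 (1239 ± 126 and 810 ± 400 CPM), Arrb1 (383 ± 32.2 and 477 ± 94.9 CPM) and Plcb3 (431 ± 48.8 and 280 ± 91.2 CPM), given as vehicle and vincristine means (SD, n = 3 each). None of them passed by edgeR (adjusted p from 0.436 to 0.788). Rgs4 was at 351 CPM in vincristine replicate 1 and at 1002 and 1078 CPM in the other two. Opposite-strand genes overlap Gnas and Plcb3, and a microRNA gene overlaps Arrb2.

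The genes whose level over the 6 libraries was most like that of the chosen receptors were found by Pearson correlation of log2(CPM + 0.1) over the 15632 genes that averaged 1 CPM or more. For Cckbr these were Sprr1a, Gadd45a, Lrrc17, Tbc1d14 and Atf3, with r from 0.998 to 0.999. For Gpr151 they were Lrrc17, Atf3, Cckbr, Tbc1d14 and Gadd45a, with r from 0.996 to 0.999. For Qrfpr they were Cyp4f16, Akr1b8, Lrrc17, Smim3 and Mad2l2, with r from 0.995 to 0.999. All 6 points share the same group difference, so high values are common, and r ignores its size: Tbc1d14 had a log2 fold change of 0.20 and Sprr1a of 7.495. Atf3, a transcription factor gene known from injured sensory neurons, was at 7.95, 7.56 and 6.05 CPM in vehicle and at 129, 196 and 289 CPM in vincristine. Like Cckbr and Gpr151 it had its lowest vincristine value in replicate 1 and its highest in replicate 3. The same held for Cckar, Galr1, Npy1r, Npy2r and the geometric mean of the pan-neuronal markers. It did not hold for Qrfpr, Galr2, Ntsr1 and Ntsr2.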

How the data were processed

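RNA sequencing libraries of 3 vehicle and 3 vincristine pools were grouped and numbered by sample title. The deposited files' names give 10 µg where the labels give a cumulative 40 µg, and number vehicle replicate 3 as 4. The labels were used. What the authors deposited is a raw read count for each gene symbol, made with STAR, SAMtools and HTSeq on mm10 (GRCm38), per the submitters' processing notes. Tool versions, annotation and strand setting were not stated there. Libraries were stranded total RNA, per the labels' protocols. The counter's summary lines were left out: 14.8% to 24.8% of tallied alignments were assigned to no annotated feature and 31.1% to 40.5% were not unique.

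The main test was edgeR 4.0.16 under R 4.3.3 (low counts removed by filterByExpr, minimum count 10; TMM; estimateDisp, glmQLFit and glmQLFTest, robust; group only; 4 residual degrees of freedom; two-sided, Benjamini-Hochberg over 16706 genes, threshold 0.05). SE is the fold change over the square root of F. CPM use TMM-scaled sizes. Pools of a group differed by more than sampling noise. Alternatives were DESeq2 1.42.0, limma 3.58.1 (voom with sample weights), RLE factors, other filters, a replicate block, a threshold of 0.1, leaving out each library and, added after the data were seen, neuronal scaling. Exon lengths are from GENCODE M21.

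The members and gene lists were chosen with earlier results of these data known. Spx was counted under an older symbol, and Galr3 was not analysed here. Named genes were all members, peptides and related receptors; from the wider lists, called genes, the 4 smallest p and the 4 highest means; and the 5 likest genes. A planned comparison of protein sequences was not made.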

Additional observations from a re-analysis of the deposited data

How the results depend on the processing

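The number of genes called by edgeR, 60, moved with the method: 569 by DESeq2, 474 by limma with sample weights, 99 without a filter on low counts, 20 with neuronal scaling and 125 at a threshold of 0.1. It was 261 with the replicate block. Leaving out 1 library gave 0 to 346, with 0 without any vehicle library (1063 to 1462 genes at an unadjusted p under 0.05), and the count of called members gave 0 to 3 and of called peptides, 2 with every library, 0 to 3. These last counts are of genes chosen as higher in these libraries and are no evidence of stability. Other neuropeptide receptors called were 1 by DESeq2, 2 by limma with sample weights and 1 with the replicate block, and G protein signalling genes called were 1, 1 and 1, all against 0. Under the block the 5 tested receptors not chosen for their difference did not pass. Nothing in the labels says that the numbers pair the pools, so the main fit left the block out. Same-numbered samples deviated from their group means with correlations of 0.43, 0.25 and -0.094. For vehicle and vincristine samples with different numbers these correlations ran from -0.49 to 0.49. The file names number vehicle replicate 3 as 4, and the block rests on the labels' numbers. The cyclic AMP response element alone was in 0 of the 7 member promoters read, against 1 for either motif.

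Signs turned for some genes that did not pass. Cckar was -0.036 with the replicate block and -0.22 to 0.47 with a library left out. With neuronal scaling Galr2 was 0.085, Npy5r 0.22 and Sorl1 0.42, and Ntsr2 was -0.21 by limma with sample weights. With a library left out, ranges crossed zero for Galr2 (-0.66 to 0.20), Npy2r (-0.11 to 0.72), Ntsr2 (-0.25 to 0.94), Qrfp (-3.10 to 0.27), Npy5r (-0.32 to 0.023), Npy6r (-0.16 to 0.55) and Sorl1 (-0.35 to 0.0031). The cause was not tested. Galr2, Ntsr1, Npy4r, Npy5r, Cck, Spx and Qrfp had too few reads to be tested, and the folds of Cckbr and Qrfpr rest on 12 and 4 vehicle reads.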
